A study of Mus musculus with 12 samples.

Results

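Semaphorins, plexins, neuropilins, ephrins and Eph receptors were followed as a group in mouse embryonic stem (ES) cells depleted of *Kdm6a*. The group was given as 49 genes by symbol, and its members were those with a mean linear signal of at least 0.1 of the array mean over all arrays. Of the 49 genes, 48 were measured by a probe set that carries 1 gene symbol, 44 of these were members, 4 lay below the minimum, and *Ephb2* was not analysed here. The array held 19938 genes so measured, of which 15309 reached the minimum and were tested together.

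Semaphorins are secreted or membrane-bound proteins that act through plexin receptors, in part with neuropilins as co-receptors, and steer growing axons, blood vessels and migrating cells. Ephrins are membrane-bound ligands of the Eph receptor tyrosine kinases, where A-type ephrins are tethered by a lipid anchor and B-type ephrins span the membrane and can signal back into their own cell. *Kdm6a* encodes a demethylase that removes methyl groups from lysine 27 of histone H3, a mark that Polycomb places in ES cells at many developmental genes.

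In each experiment ES cells transfected with siRNAs against *Kdm6a* (*Kdm6a* RNAi) were set beside cells given negative control siRNAs, with 1 array each. PGK12.1, a female line from a 129 female crossed with a (129 X PGK)F1 male, was used in 4 experiments, and WD44, a male BL6 line, in 2, which makes 12 arrays. PGK12.1 experiments 1 and 2 were double RNAi (100 pmol for 48 h, then 400 pmol for 24 h), and the remaining experiments of both lines were single RNAi (100 pmol for 48 h). All cells were undifferentiated, at passages 14 to 18, grown with leukemia inhibitory factor on embryonic fibroblast feeders that were depleted on gelatin before transfection. Each sex is 1 line, so sex cannot be told apart from strain, and although the study speaks of independent treatments, it does not say what set the experiments of a line apart, so p-values measure the spread between these experiments. Array medians (log2) were 6.15 to 6.48 in PGK12.1 experiments 1 to 3 and 8.03 to 8.21 in PGK12.1 experiment 4 and WD44, so levels below are multiples of the array mean and changes were taken within an experiment. *Kdm6a* itself changed by -1.27, -1.50, -1.42 and -0.96 (log2) in PGK12.1 experiments 1 to 4 and by -0.94 and -0.92 in WD44, which passed in PGK12.1 (adjusted p = 0.000293 in limma) and not in WD44 (adjusted p = 0.130). The 8 ES cell markers were at 55.5 to 95.6 array means in sum on all arrays, and the 13 measured feeder markers at 2.01 to 3.00, of which *Postn* and *Lum* lay below the minimum.

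In PGK12.1, 4 of the 44 guidance genes passed the threshold of 0.05 after Benjamini-Hochberg adjustment over all tested genes in limma. The secreted ligand gene *Sema3e* and the membrane ligand gene *Efnb2* were higher after *Kdm6a* RNAi, and the membrane semaphorin gene *Sema6c* and the receptor gene *Ephb3* were lower. These are 2 higher calls, beside 3.71% of all tested genes, and 2 lower calls, beside 2.1% of all tested genes. Over the 44 members, 21 changes were positive and 23 negative, with a median log2 change of -0.01 against 0.01 for all genes. The size of the change had a median of 0.08 in the members and 0.06 in all genes. At an unadjusted p under 0.05, 7 members were higher, beside 13.5% of all genes, and 5 lower, beside 9.18%. Bulk RNA does not tell a change in RNA per cell from a change in the share of cells that express a gene.

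*Sema3e* encodes a secreted class 3 semaphorin that binds plexin D1 without a neuropilin and repels growing vessels. After *Kdm6a* RNAi it stood at 0.531, 0.595, 0.375 and 0.314 array means in PGK12.1 experiments 1 to 4, against 0.304, 0.308, 0.223 and 0.246 in the controls. Every *Kdm6a* RNAi array was above every control array, and the smallest step was that of experiment 4. The mean log2 change was 0.72 (95% confidence interval 0.53 to 0.90, adjusted p = 0.00192 in limma), which is a rise of 64.1% (SD of the log2 change 0.26, n = 4). In WD44 the levels were 1.26 and 1.38 after *Kdm6a* RNAi and 1.12 and 1.14 in the controls, a log2 change of 0.21 (adjusted p = 0.408 in limma). For *Plxnd1*, the gene of its receptor, the change was 0.04 in both lines (interval -0.07 to 0.14 in PGK12.1, -0.11 to 0.18 in WD44).

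*Efnb2* encodes ephrin-B2, a ligand of EphB receptors that marks arterial endothelium, where its receptor EphB4 marks veins. After *Kdm6a* RNAi it stood at 0.485, 0.504, 0.492 and 0.476 array means in PGK12.1, against 0.425, 0.381, 0.419 and 0.366 in the controls. The 2 sets of arrays did not overlap. The log2 change was 0.30 (interval 0.19 to 0.41, adjusted p = 0.00862 in limma), or 23.3% (SD of the log2 change 0.10, n = 4). In WD44 it was 1.04 and 0.984 after *Kdm6a* RNAi and 1.03 and 1.05 in the controls, a log2 change of -0.06 (interval -0.21 to 0.09, adjusted p = 0.714 in limma).

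*Sema6c*, a membrane-spanning class 6 semaphorin gene, stood at 0.296, 0.266, 0.204 and 0.285 array means after *Kdm6a* RNAi in PGK12.1, against 0.362, 0.366, 0.242 and 0.432 in the controls. It was lower in each of the 4 experiments, although the 2 sets overlapped because experiment 3 was low on both arrays. The log2 change was -0.40 (interval -0.53 to -0.26, adjusted p = 0.00697 in limma), a change of -24.1% (SD of the log2 change 0.17, n = 4). In WD44 the gene stood at 0.277 and 0.269 after *Kdm6a* RNAi and 0.314 and 0.311 in the controls, and the log2 change of -0.21 did not pass (adjusted p = 0.277 in limma).

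*Ephb3* encodes a receptor of B-type ephrins that helps to position cells in the intestinal crypt. Its levels after *Kdm6a* RNAi were 0.338, 0.337, 0.400 and 0.683 array means in PGK12.1, against 0.455, 0.441, 0.455 and 0.811 in the controls. Each pair fell, with both arrays of experiment 4 far above the others. The log2 change was -0.31 (interval -0.43 to -0.20, adjusted p = 0.00903 in limma), a change of -19.5% (SD of the log2 change 0.11, n = 4). In WD44 it was 0.789 and 0.783 after *Kdm6a* RNAi and 0.846 and 0.787 in the controls, with a log2 change of -0.07 (adjusted p = 0.675 in limma). All 4 calls stood when any 1 experiment was left out. All 4 were lost without the experiment as a block (adjusted p = 1) and in the methods' paired two-tailed test after adjustment (adjusted p = 0.208 to 0.249). Under both of these settings 0 of the 15309 tested genes were called, so the loss was not particular to these 4.

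**Figure D1:**
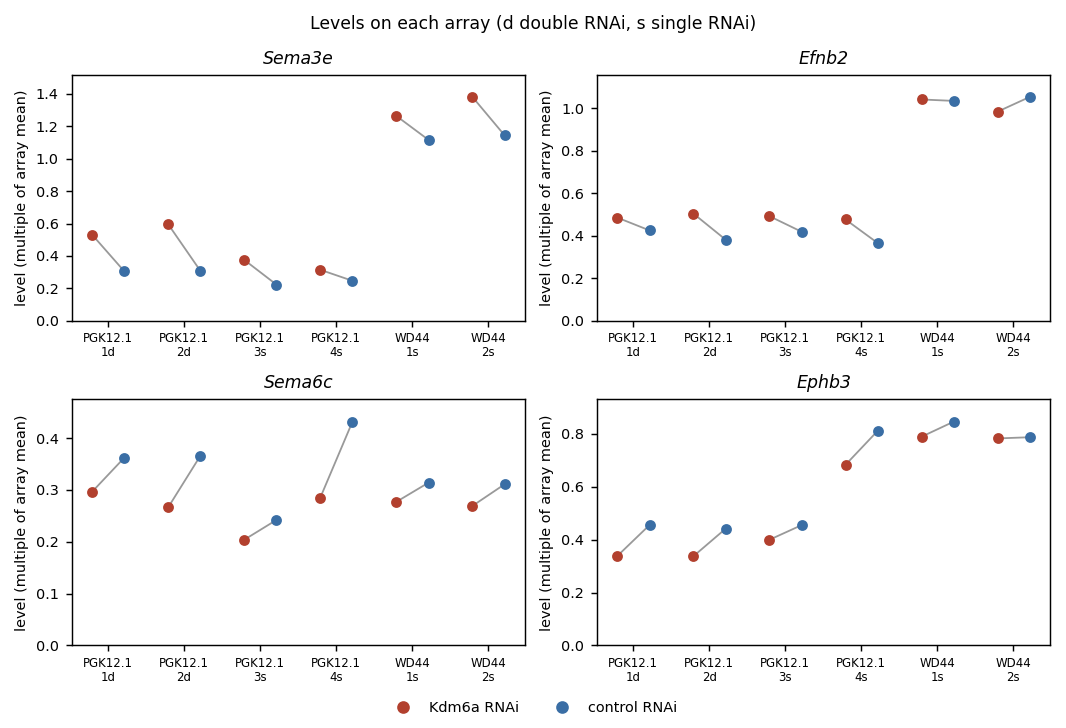
Levels of the 4 guidance genes called in PGK12.1, in multiples of the array mean, on the Kdm6a RNAi array (left of each pair) and the control array (right) of each experiment, joined by a line; d is double and s single RNAi. In PGK12.1 every line runs the same way within a gene, and Sema3e has its smallest step in experiment 4, where the Kdm6a RNAi array was at 0.314.

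The DNA just upstream of these 4 genes is shown because they are the members called in PGK12.1. Their starts differ in the density of the CG dinucleotide, at which DNA methylation occurs and whose clusters Polycomb is known to favor in ES cells. Neither DNA methylation nor histone marks were read on these arrays. Sequences are from RefSeq (GRCm38.p6), 5′ to 3′ on the strand of the gene, in lower case with each CG in capitals. They end at the base before the first annotated start: *Sema3e* at chr5:14025026-14025275 (+), *Efnb2* at chr8:8661243-8661492 (-), *Sema6c* at chr3:95160170-95160419 (+) and *Ephb3* at chr16:21204545-21204619 (+), where 75 bases are given because a transcript starts within the window of 250.
Sema3e: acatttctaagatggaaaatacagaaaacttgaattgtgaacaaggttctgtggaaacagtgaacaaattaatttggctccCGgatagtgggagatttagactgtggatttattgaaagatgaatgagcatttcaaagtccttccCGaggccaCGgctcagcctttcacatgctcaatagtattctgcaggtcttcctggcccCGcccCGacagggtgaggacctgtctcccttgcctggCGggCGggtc
Efnb2: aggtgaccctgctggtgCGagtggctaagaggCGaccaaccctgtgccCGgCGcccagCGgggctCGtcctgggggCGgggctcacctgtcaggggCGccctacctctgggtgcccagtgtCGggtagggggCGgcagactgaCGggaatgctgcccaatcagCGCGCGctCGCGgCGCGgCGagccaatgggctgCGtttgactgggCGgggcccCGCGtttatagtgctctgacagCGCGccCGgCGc
Sema6c: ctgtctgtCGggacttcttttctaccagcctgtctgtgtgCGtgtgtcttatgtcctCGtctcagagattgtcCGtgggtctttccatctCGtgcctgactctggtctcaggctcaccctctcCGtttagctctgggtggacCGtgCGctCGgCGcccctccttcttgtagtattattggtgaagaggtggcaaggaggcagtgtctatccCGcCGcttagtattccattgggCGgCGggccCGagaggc
Ephb3: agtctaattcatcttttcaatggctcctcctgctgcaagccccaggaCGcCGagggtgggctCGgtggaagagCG
Over the 250 bases of the window, *Sema3e* had 7 CG, *Efnb2* 27, *Sema6c* 15 and *Ephb3* 16 (CG reads the same on both strands). The window of *Ephb3* runs past the first annotated start of the gene, and only 4 of its 16 CG lie in the 75 bases upstream. At least as many CG were found for 77.0%, 14.1%, 49.5% and 46.0% of the 12061 tested genes with such a window, in that order of genes. The 38 members with a window had a median of 16 CG (1 to 39), against 14 over the tested genes, and 98.5% of all these windows held at least 1. The 2 genes that rose thus lay on opposite sides of the median CG count, and the 2 that fell near it. For *Ephb3* this holds for the whole window, most of which lies within the gene.

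Of the 5 class 3 semaphorin genes above the minimum, 3 had a positive change in PGK12.1 and 5 in WD44, beside 53.2% and 47.6% of all tested genes. *Sema3c*, a ligand of neuropilin-plexin complexes needed for the cardiac outflow tract, was at 0.125, 0.113, 0.150 and 0.170 array means after *Kdm6a* RNAi in PGK12.1, against 0.110, 0.101, 0.115 and 0.155 in the controls. In WD44 it was at 0.257 and 0.284 after *Kdm6a* RNAi, against 0.213 and 0.211 in the controls. It was thus higher in all 6 experiments. The log2 change was 0.21 in PGK12.1 (interval 0.09 to 0.33, adjusted p = 0.0519 in limma) and 0.34 in WD44 (interval 0.16 to 0.51, adjusted p = 0.164 in limma), and neither passed. *Sema3b*, *Sema3f* and *Sema3g* ranged from -0.14 to 0.01 in PGK12.1 and from 0.01 to 0.09 in WD44.

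Among the 13 genes of the membrane-bound semaphorins, *Sema6c* was the 1 called. *Sema4g* was lower in all 6 experiments, by -0.31, -0.05, -0.06 and -0.15 (log2) in PGK12.1 and by -0.36 and -0.04 in WD44. The means of -0.14 in PGK12.1 (adjusted p = 0.218 in limma) and -0.20 in WD44 (adjusted p = 0.311 in limma) did not pass, and its levels in PGK12.1 overlapped at 0.104 to 0.252 array means after *Kdm6a* RNAi and 0.108 to 0.279 in the controls. *Sema5b*, a semaphorin gene whose product carries thrombospondin repeats, changed by 0.34 and 0.33 in the double RNAi experiments and by 0.02 and 0.11 in the single ones in PGK12.1, and by -0.02 and -0.03 in WD44. Its means were 0.20 in PGK12.1 (adjusted p = 0.0804 in limma) and -0.03 in WD44 (adjusted p = 0.919 in limma). The 6 class 4 genes ranged from -0.14 to 0.02 in PGK12.1 and from -0.20 to 0.10 in WD44, the 7 genes of classes 5, 6 and 7 from -0.40 to 0.20 in PGK12.1 and from -0.21 to 0.09 in WD44. *Sema4d* was read by 2 probe sets that differed in WD44, at 0.24 and -0.09, while the 2 probe sets of *Sema6b* held the same values.

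Among receptors of semaphorins, none of 8 plexin and 2 neuropilin genes was called in either line. *Plxnc1*, whose product is the receptor of semaphorin 7A, changed by 0.14, 0.39, 0.12 and 0.25 in PGK12.1 and by -0.30 and 0.01 in WD44. In PGK12.1 its levels were 0.163, 0.181, 0.0894 and 0.213 array means after *Kdm6a* RNAi, against 0.150, 0.137, 0.0821 and 0.179 in the controls, so that it was higher in each pair while the 2 sets overlapped. The mean of 0.23 did not pass (interval 0.08 to 0.37, adjusted p = 0.0680 in limma). The other 7 plexin genes lay between -0.03 and 0.09 in PGK12.1 and between -0.07 and 0.18 in WD44. *Nrp1* and *Nrp2* changed by 0.07 and -0.06 in PGK12.1 and by 0.16 and 0.09 in WD44.

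No A-type ephrin gene was called. *Efna4* was lower in all 4 PGK12.1 experiments (-0.07, -0.17, -0.06 and -0.04) and higher in both of WD44 (0.06 and 0.02). *Efna3* showed the opposite pattern, with 0.11, 0.03, 0.31 and 0.24 in PGK12.1 and -0.07 in each WD44 experiment, and its mean of 0.17 in PGK12.1 had an adjusted p of 0.0869 in limma. *Efna5* was at 1.29 and 1.49 array means after *Kdm6a* RNAi in WD44, against 1.15 and 1.18 in the controls (log2 change 0.24, adjusted p = 0.268 in limma), and changed by -0.17, 0.04, 0.19 and 0.24 in PGK12.1. *Efna1* was at 0.266 and 0.260 after *Kdm6a* RNAi in WD44, against 0.297 and 0.294 in the controls (log2 change -0.19, adjusted p = 0.299 in limma), and its 4 changes in PGK12.1 were split 2 and 2. *Efna2* changed by 0.09 in PGK12.1 and 0.01 in WD44. The remaining B-type ephrin genes, *Efnb1* and *Efnb3*, changed by -0.01 and -0.07 in PGK12.1 and by 0.14 and 0.07 in WD44.

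All 4 EphB receptor genes above the minimum had a negative change in PGK12.1, while 3 of them had a positive one in WD44. Over all tested genes, 53.2% of changes were positive in PGK12.1 and 47.6% in WD44. None of the 4 EphB genes was called for the difference between lines. *Ephb4*, the receptor of ephrin-B2, was at 0.585, 0.544, 0.506 and 0.858 array means after *Kdm6a* RNAi in PGK12.1, against 0.648, 0.607, 0.545 and 1.13 in the controls. Each pair was lower, most in experiment 4, and the log2 change of -0.20 did not pass (interval -0.33 to -0.08, adjusted p = 0.0647 in limma). In WD44 it was at 0.800 and 0.740 after *Kdm6a* RNAi and 0.721 and 0.729 in the controls, a log2 change of 0.07 (adjusted p = 0.707 in limma). *Ephb1* and *Ephb6* changed by -0.05 and -0.02 in PGK12.1 and by 0.10 each in WD44, and the 2 probe sets of *Ephb1* differed in PGK12.1 at -0.15 and 0.05. Of the EphA receptor genes, *Epha7* changed by 0.16, 0.27, 0.07 and 0.20 in PGK12.1 (mean 0.18, adjusted p = 0.0761 in limma) and by 0.15 and -0.05 in WD44. *Epha1*, *Epha2* and *Epha4* lay between -0.09 and 0.09 in PGK12.1 and between -0.05 and 0.08 in WD44.

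**Figure D2:**
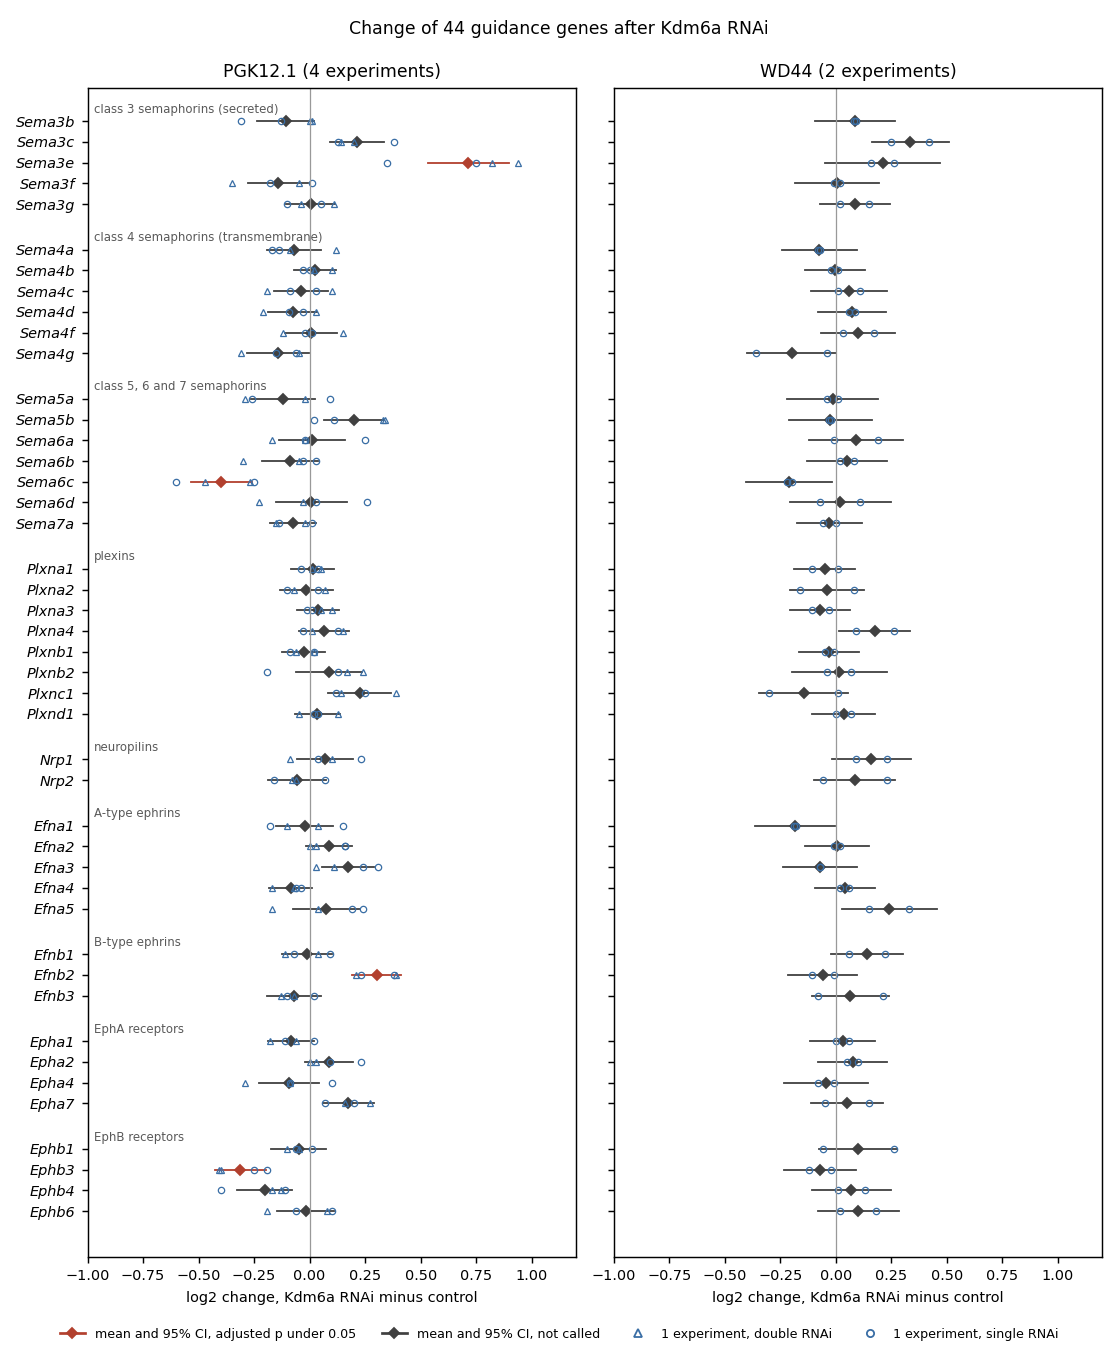
Log2 change, Kdm6a RNAi minus control, of the 44 guidance genes by family in PGK12.1 (left) and WD44 (right), with each experiment (triangles double RNAi, circles single RNAi), the mean (diamond) and its 95% confidence interval from limma; red marks an adjusted p under 0.05. Sema3e, Efnb2, Sema6c and Ephb3 are red in PGK12.1, and no gene is red in WD44.

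In direction, 7 members were higher in all 4 PGK12.1 experiments (15.9%, beside 16.3% of all tested genes) and 5 were lower in all 4 (11.4%, beside 10.6%). Those shares were close to the ones over all genes. The 7 were *Sema3e*, *Efnb2*, *Plxnc1*, *Sema3c*, *Sema5b*, *Epha7* and *Efna3*, and the 5 were *Sema6c*, *Ephb3*, *Ephb4*, *Sema4g* and *Efna4*. Over both lines, *Sema3c* and *Sema3e* were higher in all 6 experiments (4.55% of members, beside 3.88% of all genes), and *Ephb3*, *Sema4g* and *Sema6c* lower in all 6 (6.82%, beside 3.93%). For 5 members every PGK12.1 experiment had 1 sign and both WD44 experiments the other (11.4%, beside 9.31% of all genes), namely *Efnb2*, *Efna3* and *Sema5b*, higher in PGK12.1, and *Ephb4* and *Efna4*, lower in PGK12.1.

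In WD44, no member was called by limma, as no gene of the 15309 was (0.0% in either direction). At an unadjusted p under 0.05, 3 members were higher (*Sema3c*, *Efna5* and *Plxna4*) and 2 lower (*Sema6c* and *Efna1*), while over all genes 8.84% were higher and 7.23% lower. The smallest adjusted p of a member was 0.164, for *Sema3c*. Of the 44 changes, 27 were positive and 17 negative, with a median of 0.03 against -0.01 for all genes. Both experiments were positive for 16 members (36.4%, beside 31.3% of all genes) and both negative for 11 (25.0%, beside 33.1%). Of the 4 residual degrees of freedom behind the WD44 intervals, most come from PGK12.1. In WD44 the feeder markers summed to 2.87 to 3.00 array means after *Kdm6a* RNAi and 2.66 to 2.80 in the controls, with 9 of 11 tested markers positive and none called, against 2.08 to 2.97 after *Kdm6a* RNAi and 2.01 to 2.96 in the controls in PGK12.1, with 3 of 11 positive. Among ES cell markers, 1 of 8 (*Utf1*) was called lower in PGK12.1. The part of these in the changes of the guidance genes was not tested.

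A call in 1 line only is not a difference between lines, so the difference of the changes (PGK12.1 minus WD44) was tested in the same fit. No member was called (0.0% of all genes in either direction), and at an unadjusted p under 0.05, 4 members had a higher change in PGK12.1, beside 11.0% of all genes, and 2 a lower one, beside 10.0%. The largest differences were 0.51 for *Sema3e* (interval 0.19 to 0.82, adjusted p = 0.107 in limma), 0.37 for *Plxnc1* (interval 0.13 to 0.61, adjusted p = 0.112 in limma; 0.22 without WD44 experiment 1 and 0.52 without WD44 experiment 2) and 0.36 for *Efnb2* (interval 0.17 to 0.55, adjusted p = 0.0924 in limma). The lowest were -0.27 for *Ephb4* (adjusted p = 0.155 in limma) and -0.24 for *Ephb3* (adjusted p = 0.164 in limma). For *Sema3e*, *Plxnc1* and *Efnb2* the 4 changes in PGK12.1 lay above both in WD44, as they did for 6 members in all (13.6%, beside 17.9% of all genes). They lay below both for another 6 (13.6%, beside 13.6% of all genes), *Ephb3*, *Ephb4* and *Sema6c* among them. For *Sema3c* the difference was -0.12 (interval -0.33 to 0.09), and for *Sema6c* it was -0.19 (interval -0.42 to 0.05).

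**Figure D3:**
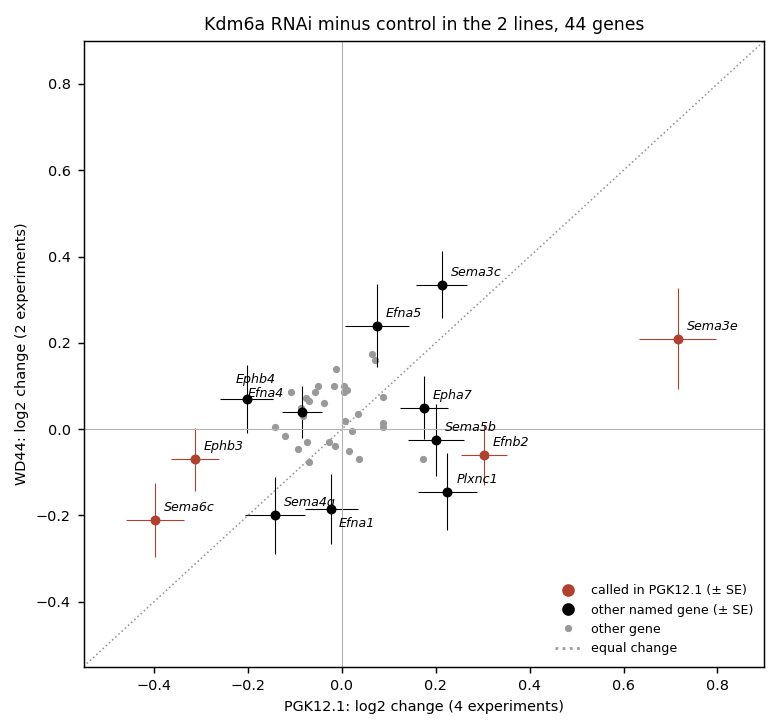
Mean log2 change after Kdm6a RNAi in PGK12.1 (horizontal, 4 experiments) and WD44 (vertical, 2 experiments) for the 44 guidance genes, with standard errors for the named genes and a dotted line of equal change. Sema3e lies at 0.72 and 0.21, Efnb2 at 0.30 and -0.06, and Sema3c at 0.21 and 0.34.

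Double RNAi and single RNAi in PGK12.1 differ in dose, time and set of arrays together, with 2 experiments each. No member differed between them in limma (0.0% of all genes in either direction, smallest adjusted p of a member 0.508). At an unadjusted p under 0.05, double minus single RNAi was positive for 3 members (*Sema5b*, *Sema3e* and *Sema3b*), beside 4.78% of all genes. It was negative for 3 (*Efna5*, *Efna3* and *Sema6d*), beside 4.10%, although *Efna3* rose in all 4 PGK12.1 experiments. *Sema6d* averaged only 0.096 array means after *Kdm6a* RNAi and 0.098 in the controls of PGK12.1. *Sema3e* rose by 0.82 and 0.94 in double RNAi, against 0.75 and 0.35 in single RNAi, a difference of 0.33 (interval 0.03 to 0.63). *Ephb3* fell by 0.41 and 0.40 in double RNAi, against 0.19 and 0.25 in single RNAi, a difference of -0.19 (interval -0.38 to 0.01). For *Efnb2* and *Sema6c* the differences were -0.005 (interval -0.23 to 0.22) and 0.06 (interval -0.23 to 0.34).

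Genes that work with these ligands and receptors were taken from 4 lists with 74 genes, of which 67 were tested. In PGK12.1, 4 were called higher (5.97%, beside 3.71% of all tested genes) and 4 lower (5.97%, beside 2.1%), and none in WD44. All 8 calls were lost without the experiment as a block and in the methods' paired two-tailed test after adjustment. In both, 0 of the 15309 tested genes were called. With 1 experiment left out, 2 or 3 of the 8 stood: *Dpysl3* in each case, *Sdcbp* in all but that without PGK12.1 experiment 2, where *L1cam* and *Rnd1* stood instead. Calls over all 15309 genes also fell in these refits, from 568 higher to 198 to 396, and from 322 lower to 152 to 211. Among semaphorin-plexin effectors and co-receptors, 2 of 26 were called higher, beside 3.71% of all tested genes, and 2 lower, beside 2.1%. *Dpysl3*, whose product is a collapsin response mediator protein, changed by 0.35, 0.27, 0.45 and 0.43 in PGK12.1 (mean 0.38, adjusted p = 0.00256 in limma) and by 0.00 in both WD44 experiments. *Fyn*, a Src-family kinase gene, rose by 0.19 (adjusted p = 0.0345 in limma). *Rnd1*, a GTPase that binds plexins, changed by -0.22 (adjusted p = 0.0239 in limma), and *L1cam*, an adhesion molecule that pairs with neuropilin-1, by -0.20 (adjusted p = 0.0315 in limma).

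Among ephrin-Eph effectors, 2 of 16 were called higher, beside 3.71% of all tested genes, and 0 lower, beside 2.1%. *Sdcbp*, the gene of syntenin, which binds the tails of B-type ephrins, rose by 0.64, 0.47, 0.13 and 0.41 in PGK12.1 (mean 0.41, adjusted p = 0.0110 in limma), and changed by 0.03 and 0.09 in WD44. *Tiam1*, an activator of the GTPase Rac, changed by 0.23 in PGK12.1 (adjusted p = 0.0467 in limma, or 0.0501 with every probe set kept) and by -0.18 in WD44 (adjusted p = 0.303 in limma). Of the 3 further plexin and Eph genes tested, *Plxnb3* changed by -0.23 in PGK12.1 (adjusted p = 0.0474 in limma, or 0.0509 with every probe set kept). Of 22 netrin, Slit, Robo and other guidance genes, *Robo4*, known from endothelium, changed by -0.21 (adjusted p = 0.0453 in limma), while the largest change, 0.26 for *Ntn1*, did not pass (adjusted p = 0.0538 in limma). The median of the 67 was 0.01 in PGK12.1 and 0.00 in WD44.

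The control arrays show where the guidance genes ranked in each line without *Kdm6a* RNAi. Ranks within an array (percentile among all genes) were used, since the arrays were not on 1 scale, and no test was made with 4 against 2 arrays. For 20 of 44 members all 4 PGK12.1 controls ranked below both WD44 controls (45.5%, beside 24.6% of all tested genes), and for 5 they ranked above (11.4%, beside 26.5%). The widest gaps were those of the ligand genes *Efna5* and *Sema6a*. Receptor genes, *Epha1* and *Epha7* among them, also ranked lower in PGK12.1 without overlap. *Efna5* was at percentiles 33.6, 33.1, 37.5 and 38.1 in PGK12.1 and 77.1 and 77.7 in WD44. *Sema6a* was at 36.3, 39.4, 47.2 and 61.6 in PGK12.1 and 96.2 and 97.6 in WD44. Of the called genes, *Sema3e* was at 54.2, 55.5, 51.4 and 43.4 in PGK12.1 and 76.6 and 77.2 in WD44, and *Efnb2* at 62.0, 60.2, 63.8 and 53.2 in PGK12.1 and 75.0 and 75.5 in WD44. Both genes that rose in PGK12.1 ranked lower in its controls than in those of WD44, as did 45.5% of all members. A link between rank and change was not tested. The 2 that fell did not share a direction: *Sema6c* ranked higher, at 53.1 to 59.3 in PGK12.1 and 50.7 and 51.1 in WD44, while *Ephb3* overlapped, at 63.3 to 70.1 in PGK12.1 and 69.4 and 70.8 in WD44, and was lower without overlap when centred on the array median. The 5 members that ranked higher in PGK12.1 were *Efnb1*, *Epha4*, *Ephb4*, *Sema4f* and *Sema6c*. Experiment 4, whose array median was nearest to WD44, ranked below both WD44 controls for 26 members (59.1%, beside 43.6% of all genes) and above both for 14 (31.8%, beside 47.1%). With log2 values centred on the array median in place of ranks, 17 members were lower (38.6%, beside 22.3%) and 5 higher (11.4%, beside 28.6%). In all of these the line cannot be told apart from the set of arrays.

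**Figure D4:**
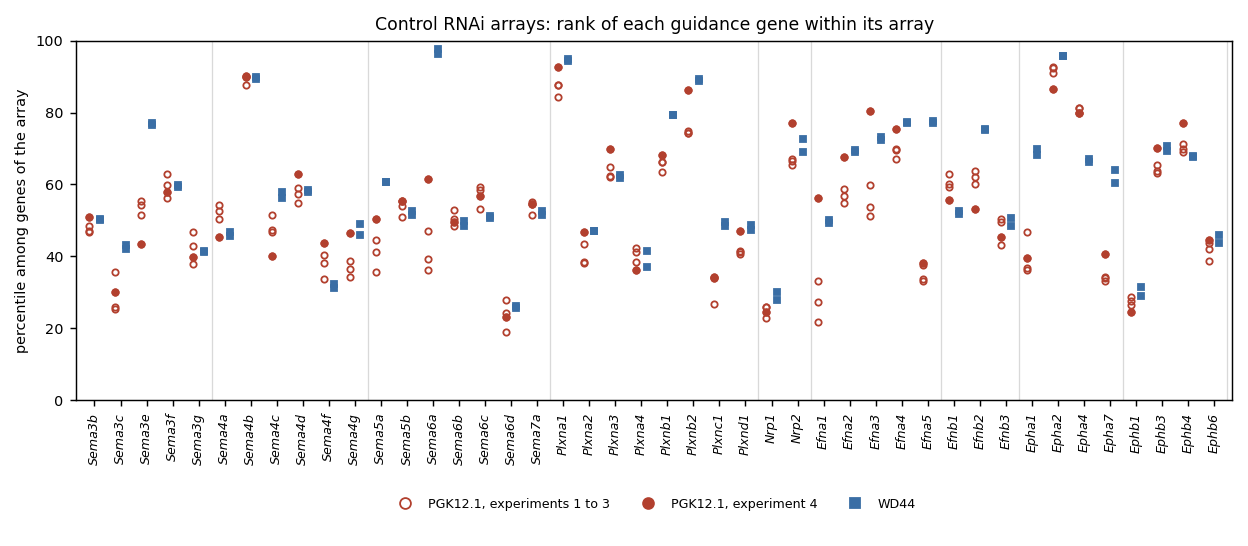
Percentile of each guidance gene among all genes of its control RNAi array, by family, in PGK12.1 (circles, experiment 4 filled) and WD44 (squares). Efna5 and Sema6a show the widest gaps, with WD44 at 77.1 and above for Efna5 and at 96.2 and above for Sema6a.

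The 4 listed genes below the minimum were *Sema3a* (0.0669 of the array mean), *Sema3d* (0.0816), *Epha3* (0.0762) and *Epha5* (0.0618), and those just above it were *Sema6d* (0.101), *Nrp1* (0.114) and *Ephb1* (0.117). Without the minimum, the 4 changed by -0.12 to 0.06 in PGK12.1 and by 0.02 to 0.17 in WD44, and none was called in limma in either line. The smallest adjusted p among them was 0.375 in PGK12.1 and 0.413 in WD44.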

How the data were processed

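Total RNA from 12 samples (4 *Kdm6a* RNAi and 4 control RNAi in PGK12.1, 2 and 2 in WD44) was read on Affymetrix Mouse Gene 1.0 ST arrays. The deposited log2 values came from RMA in Affymetrix Expression Console, run by the authors. The version, and which arrays were processed as 1 set, is not given in the sources used here. Of 35556 probe sets, 21789 had 1 gene symbol in the platform annotation, 1621 had several and 12146 none; probe sets of a gene were averaged (999 genes). Deposited values were used without further normalization.

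limma 3.58.1 in R 4.3.3 was fitted to 15309 genes with the experiment as a block (4 residual and 5.66 prior degrees of freedom), Benjamini-Hochberg adjustment and a threshold of 0.05. Same-numbered arrays are paired by the labels, and their deviations from the group means correlated at 0.828 to 0.972 in PGK12.1, where array scale enters, and 0.265 in WD44. Double minus single RNAi used a fit with 3 residual degrees of freedom. The small number of arrays limits precision.

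The members, gene lists and alternatives were chosen with earlier results of these data known. Named were called members, up to 6 higher and 6 lower with the same sign in all 4 PGK12.1 experiments, up to 3 each way in both WD44 experiments, the 3 largest line differences, and called or largest pathway genes; other members named with values were chosen after seeing them. Marker lists covered ES, feeder, neural, mesoderm, endoderm and trophoblast genes. Outside ES and feeder genes, 0 markers were called in either line, but in WD44 3 sums did not overlap: after *Kdm6a* RNAi and in the controls, in array means, trophoblast markers were at 9.61 to 9.76 and 8.69 to 8.95, endoderm markers at 1.16 to 1.17 and 1.03 to 1.09, and mesoderm markers at 1.24 and 1.32 to 1.33. Within these WD44 lists the tested markers were not of 1 sign: 3 of 4 trophoblast, 3 of 4 endoderm and 2 of 4 mesoderm markers had a positive change. In PGK12.1 these sums overlapped, with 4 of 4 tested trophoblast markers negative. Figures used matplotlib 3.10.9.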

Additional observations from a re-analysis of the deposited data

Results flagged for a closer look

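For 5 members the change had 1 sign in all 4 PGK12.1 experiments and the other in both WD44 experiments, which is 11.4% of members, beside 9.31% of all tested genes. The difference between lines (PGK12.1 minus WD44, log2) was 0.36 for *Efnb2* (adjusted p = 0.0924 in limma), 0.24 for *Efna3* (adjusted p = 0.174), 0.22 for *Sema5b* (adjusted p = 0.248), -0.12 for *Efna4* (adjusted p = 0.355) and -0.27 for *Ephb4* (adjusted p = 0.155), so none passed. *Efna3* is named here for this pattern. No named member had a PGK12.1 experiment whose gap to the nearest of the others, over the whole range, passed Dixon's 95% critical value for 4 values. The widest ratio was 0.793, for experiment 4 of *Ephb4*.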

How the results depend on the processing

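Without the experiment as a block no member was called in PGK12.1 (0 higher, 0 lower), and likewise in the methods' paired t-test after Benjamini-Hochberg adjustment (0 and 0). Under both settings 0 of all 15309 tested genes were called. In the single RNAi experiments no member was called (0 and 0), beside 43 higher and 58 lower of 15309 genes. The double RNAi experiments gave 1 higher (*Sema3e*) and 1 lower (*Ephb3*) member, beside 117 higher and 65 lower of 15309 genes. At an unadjusted p under 0.05 the methods' t-test gave 5 higher and 2 lower members. The share of all genes at that threshold was not counted for this test, so these counts show no excess over it. The members higher in PGK12.1 numbered 5 with a minimum of 0.25 (beside 926 of 10539 genes) or with trend and robust (beside 1101 of 15309 genes). They numbered 4 with median centring (beside 628 of 15309) or quantile normalization (beside 476 of 15309), where *Plxnc1* and *Sema3c* joined. The members lower in PGK12.1 numbered 3, with *Ephb4* added, with a minimum of 0.25, quantile normalization or trend and robust (lowest adjusted p = 0.0195 in limma). Over all genes, 439 of 10539, 365 of 15309 and 546 of 15309 were lower under these settings, in that order. The difference between lines had 1 higher member with a minimum of 0.25 (*Efnb2*), beside 178 of 10539 genes. It had 2 with trend and robust (*Efnb2* and *Sema3e*), beside 394 of 15309 genes. No member was called in WD44 or between double and single RNAi under any alternative run. Of control arrays, 14 members ranked higher with PGK12.1 experiment 4 alone (31.8%, beside 47.1% of all genes), an alternative chosen after seeing the data.

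The 13 named members were followed in 679 refits of single changes, of which 641 kept their direction and their side of the threshold. The direction turned in the cases given here. *Efna5* in PGK12.1 was -0.06 in the double RNAi experiments alone. With 1 experiment left out at a time, *Efna1* in PGK12.1 ranged from -0.08 to 0.03, *Plxnc1* in WD44 from -0.30 to 0.01, *Epha7* in WD44 from -0.05 to 0.15, the *Sema4g* difference between lines from -0.10 to 0.22, and double minus single RNAi from -0.10 to 0.08 for *Efnb2* and from -0.12 to 0.23 for *Sema6c*. The cause was not tested. All 4 calls in PGK12.1 remained with 1 experiment of either line left out, with adjusted p (limma) of 0.00305 to 0.0483.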
